A study of Homo sapiens with 18 samples.

Results

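The genes of plasminogen activation were followed in RNA-seq libraries of RPE1 clones that differ in ploidy. The set holds 5 genes of the 57773 in the deposited RPKM table. They are the activators PLAT and PLAU, the receptor PLAUR and the serpin inhibitors SERPINE2 and SERPINB2. Members were found by Ensembl ID, and the set was chosen by measured values: the RPKM of PLAT, which was higher in every tetraploid clone than in its diploid partner. That contrast of PLAT is therefore described here without a test. The other members are tested in it.

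RPE1 is an immortalised human retinal pigment epithelial line with a stable, near-diploid genome. Tetraploid (4N) and diploid (2N) clones both came from RPE1 cells that had received the Aurora kinase inhibitor ZM447439 (2.5 uM, 72 h), which blocks cytokinesis, and had then been left for weeks until they proliferated. Single cells were cloned and their ploidy was read by flow cytometry. Each 4N clone has a 2N partner from the same plates, giving 3 pairs that share a number (4N-1 and 2N-1 are pair 1). In pair 2, both clones were in addition labelled with Hoechst 33342 before sub-cloning. All cells grew in DMEM with fetal bovine serum, and no clone without inhibitor exposure is in the set. Each clone gave 3 poly(A) libraries, A, B and C, so 18 libraries in all. Each group is 1 clone, and p-values between 2 clones measure the spread between libraries of a clone, not between clones of a ploidy.

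Plasminogen is a circulating zymogen that tissue-type plasminogen activator (tPA, from PLAT) or urokinase (uPA, from PLAU) cleaves to the protease plasmin. tPA acts mainly on fibrin, while urokinase acts at cell surfaces when bound to its anchored receptor uPAR (PLAUR). Serpins stop both activators by forming covalent complexes with them: PAI-2 (SERPINB2) is largely kept inside cells, and protease nexin-1 (SERPINE2) sits on matrix and blocks thrombin as well. Retinal pigment epithelium is known to secrete activators and their inhibitors, and the system is studied there for matrix turnover and cell migration.

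Libraries held 37.3 to 54.5 M reads in genes. Library A of 2N-3 stood apart from the rest on the second principal component (55.6, against -9.83 to 0.54 in the other libraries), library C of 4N-3 differed from its partners A and B (-9.09 against 2.56 and 2.41 on the first), and the libraries of 4N-2 lay together at 36.4 to 39.6 on the first. Pair 3 results are therefore also given without these libraries, C of 4N-3 together with A of 2N-3. Of 9 retinal pigment epithelium markers, 5 had 1 read per M or more (BEST1, MITF, OTX2, KRT8 and KRT18), whereas RPE65, RLBP1, TYRP1 and PMEL, the defining markers of the mature tissue, stayed below 1 read per M in every clone. The sum of all 9 markers was 584.5 to 793 reads per M in 4N libraries and 533.0 to 951 in 2N libraries. Most of it was KRT8 (clone means of 210.5 to 343.9 reads per M) and KRT18 (265.4 to 439.8). Of 4 leukocyte markers only CD68, which lysosome-rich cells also express, exceeded 1 read per M, and the list's sum was 27.0 to 148 reads per M in 4N libraries and 42.4 to 55.7 in 2N libraries. CD3E was at 0 throughout, and PTPRC and CD14 stayed below 1. Of 3 neuron markers SNAP25 and SYT1 exceeded 1 read per M, with a sum of 79.1 to 179 in 4N libraries and 82.7 to 157 in 2N libraries, and SNAP25 averaged 53.2 reads per M in 4N-1 against 25.4 in 2N-1. Of 3 endothelial markers with values here only TIE1 did, with a sum of 2.69 to 3.59 in 4N libraries and 2.19 to 3.91 in 2N libraries. PECAM1 was also on the endothelial list and has no value here. The part of these transcripts in the results was not tested. RPKM is a share of a library, so fewer expressing cells and less RNA per expressing cell cannot be told apart, and amounts per cell were not measured.

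Changes below are on the log2(RPKM + 0.5) scale, 4N clone over 2N clone, from 1 limma fit of all 18 libraries with Benjamini-Hochberg adjustment over the 9704 genes that had 1 RPKM or more in 3 or more libraries. A gene rose or fell at an adjusted p below 0.05, and was called when it also changed by 2-fold or more. PLAT, PLAU, PLAUR and SERPINE2 passed that filter. SERPINB2 did not, and its test comes from the same fit without the filter (40853 genes). All 5 members had enough reads for a second fit, limma-voom on whole reads recovered from the RPKM values (23416 genes).

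PLAT, the tPA gene, was the member with the widest range. In pair 1 it had 9.50, 9.51 and 9.65 RPKM in 4N-1 libraries, against 3.41, 3.77 and 3.57 RPKM in 2N-1 libraries. In pair 2 the values were 25.9, 24.6 and 21.0 RPKM in 4N-2 libraries and 5.65, 6.19 and 4.33 RPKM in 2N-2 libraries. In pair 3 they were 8.49, 7.70 and 10.01 RPKM in 4N-3 libraries and 3.00, 3.21 and 2.77 RPKM in 2N-3 libraries. The lowest 4N library of any pair lay above the highest 2N library of any pair. That PLAT was higher in the 4N clone of each pair is the property it was chosen for. The ratio of mean RPKM, 4N over 2N, was 2.67 for pair 1, 4.42 for pair 2 and 2.92 for pair 3, and the log2 changes were 1.30, 2.05 and 1.40 (SE 0.12 each). In pair 3 the log2 change was 1.30 without the 2 libraries that stood apart. Of all genes tested, 2.67% had every 4N library above every library of its 2N partner in all 3 pairs, and 0.0412% were called higher in all 3 pairs. Nothing is read from these shares for PLAT.

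The choice of PLAT did not use differences among clones of 1 ploidy, and these were tested. 4N-2 stood above both other tetraploid clones: PLAT averaged 23.8 ± 2.51 RPKM in 4N-2, against 9.56 ± 0.08 in 4N-1 and 8.73 ± 1.17 in 4N-3 (SD, n = 3 libraries each). The log2 difference was 1.27 for 4N-2 over 4N-1 (SE 0.12, limma adjusted p = 7.36e-07) and 1.40 for 4N-2 over 4N-3 (adjusted p = 4.72e-07). Both exceeded 2-fold, which 4.33% and 1.85% of all genes tested did in that direction. The 2 lower tetraploid clones were next to each other in order, and their libraries overlapped (4N-3 over 4N-1, log2 -0.13, 95% interval -0.38 to 0.12, adjusted p = 0.473). Among the diploid clones PLAT averaged 5.39 ± 0.96 RPKM in 2N-2, 3.58 ± 0.18 in 2N-1 and 2.99 ± 0.22 in 2N-3 (SD, n = 3 each). It was lower in 2N-3 than in 2N-2 (log2 -0.74, SE 0.12, adjusted p = 0.0046), which 0.423% of genes were. The difference of 2N-2 over 2N-1 (log2 0.52) missed the threshold at an adjusted p of 0.0611. It passed on recovered reads (log2 0.58, adjusted p = 0.0114), where 1.5% of genes rose. So the clones of pair 2, both Hoechst-labelled, held the highest mean PLAT level of their ploidy. Whether the label took part was not tested.

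**Figure D1:**
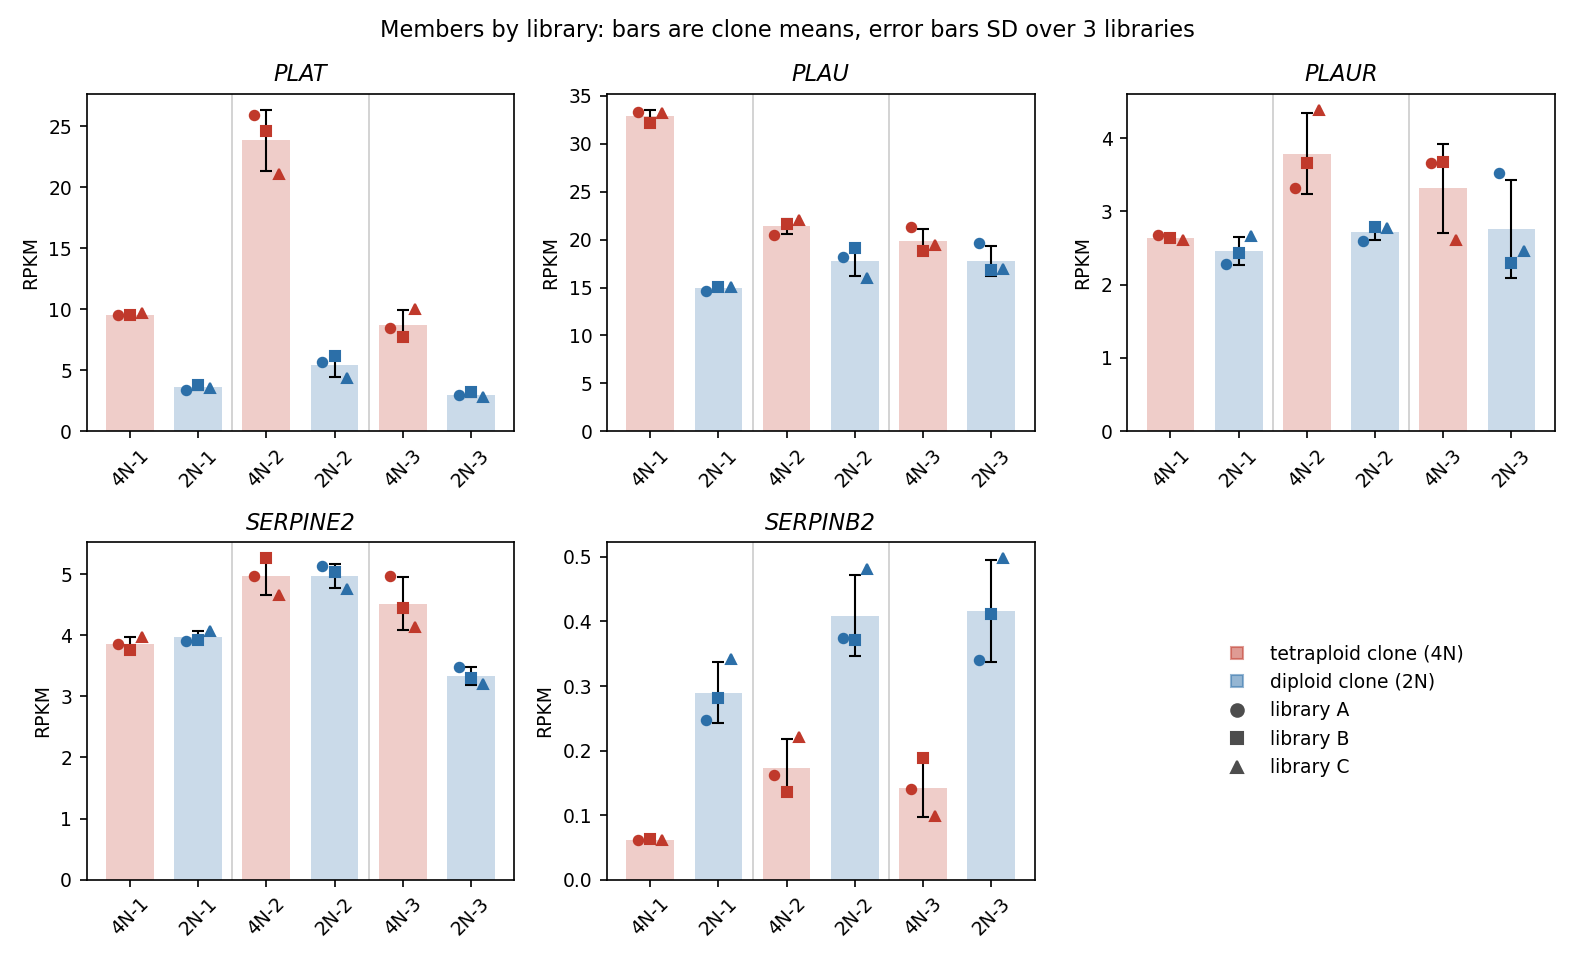
RPKM of the 5 members in each of the 18 libraries, by clone (4N clone left of its 2N partner, 1 panel a gene, each axis from 0). Points are libraries, bars are clone means and error bars are SDs over 3 libraries. PLAT bars of 4N clones (8.73 to 23.8 RPKM) stand above all 2N bars (2.99 to 5.39), SERPINB2 bars of 4N clones (0.062 to 0.173) stand below all 2N bars (0.29 to 0.417), and PLAU stands out in 4N-1 (32.95).

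PLAU, the urokinase gene, rose in pairs 1 and 2, with most of the change in pair 1. It had 33.4, 32.2 and 33.3 RPKM in 4N-1 libraries, against 14.6, 15.1 and 15.1 RPKM in 2N-1 libraries. This was a log2 change of 1.12 (SE 0.08, limma adjusted p = 6.21e-07), and PLAU was the only one of the 3 tested members above the filter that was called there, where 0.649% of all genes were called higher. In pair 2 PLAU had 20.5, 21.6 and 22.02 RPKM in 4N-2 libraries and 18.2, 19.2 and 16.0 RPKM in 2N-2 libraries. The log2 change was 0.26 (SE 0.08, adjusted p = 0.01995), a rise shared by 21.5% of genes. In that pair the change did not pass without library C of 2N-2 (log2 0.19, adjusted p = 0.106), B of 4N-2 (0.25, adjusted p = 0.0635) or C of 4N-2 (0.24, adjusted p = 0.0736). It passed without the 2 libraries of pair 3 that stood apart (0.26, limma adjusted p = 0.00274) and on recovered reads (0.27, limma-voom adjusted p = 0.0147). In pair 3 the libraries overlapped, with 21.3, 18.8 and 19.5 RPKM in 4N-3 and 19.6, 16.8 and 16.97 RPKM in 2N-3. The log2 change there was 0.16 (95% interval -0.02 to 0.33, adjusted p = 0.284), and 0.24 (adjusted p = 0.0475) without the 2 libraries that stood apart.

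The size of the PLAU change differed between pairs by a test of the difference itself. The change in pair 2 was smaller than that in pair 1 by a log2 difference of -0.86 (SE 0.12, limma adjusted p = 5.90e-05), and the change in pair 3 was smaller than in pair 1 by -0.96 (adjusted p = 0.000215). Of all genes tested, 15.1% and 4.88% had a difference below 0 that passed. Both ends of pair 1 were extreme: 4N-1 had the highest PLAU level of the 6 clones (32.95 ± 0.63 RPKM) and 2N-1 the lowest (14.9 ± 0.25 RPKM). PLAU fell in 4N-2 and in 4N-3 relative to 4N-1 (log2 -0.61 and -0.72, adjusted p = 2.32e-05 and 7.51e-05), as 20.0% and 7.66% of genes did, whereas 2N-2 and 2N-3 exceeded 2N-1 by 0.24 each without passing (adjusted p = 0.301 and 0.216). The clone order was thus unlike that of PLAT, where 4N-2 led. PLAU's gene overlaps C10orf55 on the other strand, which had 1.05% as many reads. Whether the overlap moved PLAU was not tested, and how reads in the shared stretch were counted is not given.

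PLAUR, the urokinase receptor, rose in 1 pair, and whether that rise passed depended on the filter and the libraries used. In pair 1 it had 2.68, 2.63 and 2.61 RPKM in 4N-1 libraries and 2.28, 2.43 and 2.66 RPKM in 2N-1 libraries, which overlapped (log2 change 0.09, SE 0.14, adjusted p = 0.714). In pair 2, where 21.5% of all genes tested rose, PLAUR had 3.32, 3.66 and 4.39 RPKM in 4N-2 libraries. The 2N-2 libraries had 2.59, 2.78 and 2.78 RPKM. The log2 change of 0.41 passed (SE 0.14, limma adjusted p = 0.0279), but missed without the filter on low values (adjusted p = 0.0504). It also missed without any 1 of the libraries A, B and C of 2N-2 or B and C of 4N-2. There the log2 change was 0.31 to 0.43 and the adjusted p 0.0542 to 0.13. The rise passed on recovered reads (log2 0.47, limma-voom adjusted p = 0.0176). Without the 2 libraries of pair 3 that stood apart it also passed (log2 0.41, SE 0.07, limma adjusted p = 0.000426).

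Pair 3 is where the libraries that stood apart mattered most. PLAUR had 3.66, 3.68 and 2.62 RPKM in 4N-3 libraries and 3.53, 2.29 and 2.46 RPKM in 2N-3 libraries. The low value of 4N-3 was library C and the high value of 2N-3 was library A. With both in, the groups overlapped and the log2 change was 0.23 (SE 0.14, adjusted p = 0.319). Without both it was 0.54 (SE 0.09, adjusted p = 0.00247), and PLAUR in 4N-3 then also exceeded 4N-1 (log2 0.41, adjusted p = 0.00134). The receptor's change did not differ between pairs with all libraries in (adjusted p = 0.219, 0.642 and 0.534), though without those 2 libraries pair 2 and pair 3 exceeded pair 1 by 0.32 and 0.45 (adjusted p = 0.0196 and 0.00935). Among tetraploid clones PLAUR was higher in 4N-2 than in 4N-1 (log2 0.44, adjusted p = 0.0143), as 27.7% of genes were, but not without library C of 4N-2 (log2 0.34, adjusted p = 0.0756). No pair of diploid clones differed by more than 0.12 on the log2 scale, and none passed.

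SERPINE2, the gene of protease nexin-1, rose in pair 3 and did not pass in pairs 1 and 2. It had 3.86, 3.75 and 3.98 RPKM in 4N-1 libraries and 3.91, 3.93 and 4.08 RPKM in 2N-1 libraries. The log2 change was -0.04, with a 95% interval from -0.18 to 0.10 (adjusted p = 0.764). In pair 2 it had 4.96, 5.26 and 4.66 RPKM in 4N-2 libraries and 5.13, 5.04 and 4.75 RPKM in 2N-2 libraries (95% interval -0.14 to 0.14, adjusted p = 0.974). Both intervals lie below the change in pair 3. In pair 3 SERPINE2 had 4.97, 4.45 and 4.13 RPKM in 4N-3 libraries and 3.48, 3.31 and 3.21 RPKM in 2N-3 libraries. The log2 change was 0.39 (SE 0.07, limma adjusted p = 0.00373), in a pair where 1.99% of all genes rose, and 0.47 (adjusted p = 0.000341) without the 2 libraries that stood apart. Fitted on the libraries of pair 3 alone, the same change had an adjusted p of 0.789.

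That rise in pair 3 exceeded the change in pair 1 by 0.42 (SE 0.09, adjusted p = 0.0119), and the change in pair 2 lay below that in pair 3 by a log2 difference of -0.39 (adjusted p = 0.00672). Such differences passed for 5.16% and 11.7% of genes. Among diploid clones SERPINE2 was lower in 2N-3 than in 2N-2 (log2 -0.51, SE 0.07, adjusted p = 0.000847), and 2N-3 was the lowest of the 6 clones at 3.33 ± 0.14 RPKM. In tetraploid clones it was higher in 4N-2 than in 4N-1 (log2 0.32, adjusted p = 0.00088), and by 0.20 in 4N-3 than in 4N-1 (adjusted p = 0.0472), where 10.8% of genes rose, a difference that did not pass under 5 other settings and without most single libraries. The difference of 2N-2 over 2N-1 was 0.29 and did not pass (adjusted p = 0.058). The 2 clones of pair 2 had the highest SERPINE2 levels and did not differ from each other beyond their spread.

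SERPINB2, the PAI-2 gene, was the member that fell in all 3 pairs. In pair 1 it had 0.0611, 0.0632 and 0.0616 RPKM in 4N-1 libraries, against 0.247, 0.281 and 0.341 RPKM in 2N-1 libraries. In pair 2 it had 0.163, 0.136 and 0.222 RPKM in 4N-2 libraries, against 0.374, 0.372 and 0.481 RPKM in 2N-2 libraries. In pair 3 it had 0.141, 0.188 and 0.0985 RPKM in 4N-3 libraries, against 0.341, 0.411 and 0.498 RPKM in 2N-3 libraries. The highest 4N library of any pair (0.222) was below the lowest 2N library of any pair (0.247). How many genes had libraries apart in this way across pairs was not counted, so nothing is read from it. A looser property, within each pair, was counted. Without the filter, 0.629% of genes had every 4N library below those of its 2N partner in all 3 pairs. Counted as reads over the 3 libraries of a clone, this was 269 in 4N-1 against 1130 in 2N-1, 699 in 4N-2 against 1956 in 2N-2, and 571 in 4N-3 against 1665 in 2N-3.

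Corrected for depth, the ratio of SERPINB2 reads, 4N over 2N, was 0.216 in pair 1 (95% interval 0.189 to 0.247), 0.432 in pair 2 (0.396 to 0.471) and 0.339 in pair 3 (0.308 to 0.373). These intervals cover counting error only. In the limma fit without the filter, SERPINB2 fell by 0.49 in pair 1 on the log2 scale (SE 0.07, adjusted p = 0.00101), by 0.43 in pair 2 (adjusted p = 0.00074) and by 0.51 in pair 3 (adjusted p = 0.00163). In pair 3 the change was -0.52 (adjusted p = 0.00262) without the 2 libraries that stood apart, and did not pass on the libraries of pair 3 alone (-0.51, adjusted p = 0.232). Of the genes in that fit, those with few reads included, 3.94%, 10.8% and 1.29% fell in pairs 1, 2 and 3, and 0.188% fell in all 3. The pseudocount of 0.5 exceeds every SERPINB2 value and shrinks these changes. On recovered reads, limma-voom gave log2 changes of -2.20 (SE 0.25, adjusted p = 7.66e-06), -1.25 (SE 0.21, adjusted p = 9.76e-05) and -1.58 (SE 0.21, adjusted p = 0.000106). All passed the 2-fold limit, as 2.68%, 8.12% and 1.45% of genes did downwards in each pair and 0.171% in all 3.

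SERPINB2 also varied within a ploidy. On recovered reads it was higher in 4N-2 than in 4N-1 (log2 1.46, SE 0.26, adjusted p = 0.000156) and higher in 4N-3 than in 4N-1 (log2 1.15, adjusted p = 0.00657), as 23.6% and 8.22% of genes were. The 3 libraries of 4N-1 held the lowest values of the series, 1.996 ± 0.035 reads per M. The diploid clones differed by at most 0.53 on the log2 scale, and none of these differences passed (adjusted p = 0.202 or more). The fall in pair 2 was smaller than in pair 1 on recovered reads (log2 difference 0.95, SE 0.32, adjusted p = 0.0269, a difference above 0 that 17.7% of genes passed), but not on the RPKM scale with its pseudocount (0.06, adjusted p = 0.795).

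SERPINB10, the next clade B serpin, overlaps SERPINB2 on the same strand in GENCODE. It had between 78.1% and 82.6% as many reads as SERPINB2 in each of the 6 clones, with 210 in 4N-1 against 930 in 2N-1, 570 in 4N-2 against 1557 in 2N-2, and 452 in 4N-3 against 1376 in 2N-3. Its log2 changes were -2.27, -1.21 and -1.64. Reads in the shared stretch cannot be assigned to 1 of the 2 genes from these files, so the fall belongs to the SERPINB2 and SERPINB10 stretch.

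Windows around the transcript starts of the urokinase gene, its receptor and PAI-2 are printed because these genes encode an activator, its receptor and an inhibitor, and differed in how they changed. They run from 250 bases before to 50 after the start (RefSeq, GRCh38.p14). Capitals mark matches on either strand to 2 motifs, AP-1 (TGANTCA, its own reverse complement) and the TATA box (TATAAA, or TTTATA on the other strand).
SERPINB2, chr18:63887455-63887754, + strand: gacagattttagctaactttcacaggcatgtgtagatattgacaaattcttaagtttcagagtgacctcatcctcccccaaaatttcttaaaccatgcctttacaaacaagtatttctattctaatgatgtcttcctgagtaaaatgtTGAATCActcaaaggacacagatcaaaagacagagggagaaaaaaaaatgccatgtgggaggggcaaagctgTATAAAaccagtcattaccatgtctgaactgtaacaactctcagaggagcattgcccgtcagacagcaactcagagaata
PLAUR, chr19:43670120-43670419, - strand: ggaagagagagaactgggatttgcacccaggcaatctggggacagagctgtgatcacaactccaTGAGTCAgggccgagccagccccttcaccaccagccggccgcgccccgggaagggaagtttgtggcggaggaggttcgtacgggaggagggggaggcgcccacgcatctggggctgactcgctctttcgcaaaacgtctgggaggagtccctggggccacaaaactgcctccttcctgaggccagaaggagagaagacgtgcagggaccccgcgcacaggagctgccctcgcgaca
PLAU, chr10:73910882-73911181, + strand: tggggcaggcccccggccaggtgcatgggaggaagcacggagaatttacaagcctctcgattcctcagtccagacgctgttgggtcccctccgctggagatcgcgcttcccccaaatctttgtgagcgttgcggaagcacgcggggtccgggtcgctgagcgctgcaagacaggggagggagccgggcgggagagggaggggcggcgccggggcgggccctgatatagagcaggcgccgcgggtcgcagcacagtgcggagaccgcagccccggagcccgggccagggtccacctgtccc
The SERPINB2 window held an AP-1 match that begins 102 bases before the start and a TATA box that begins 30 bases before it. The PLAUR window held an AP-1 match 186 bases before the start and no TATA box. The PLAU window held neither, nor did a second PLAU window at an upstream start. Of 35116 RefSeq windows of this length, 7.71% held AP-1 and 11.5% held a TATA box. A match here is a run of letters, and binding at it was not tested. A lack of one says nothing beyond this window.

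**Figure D2:**
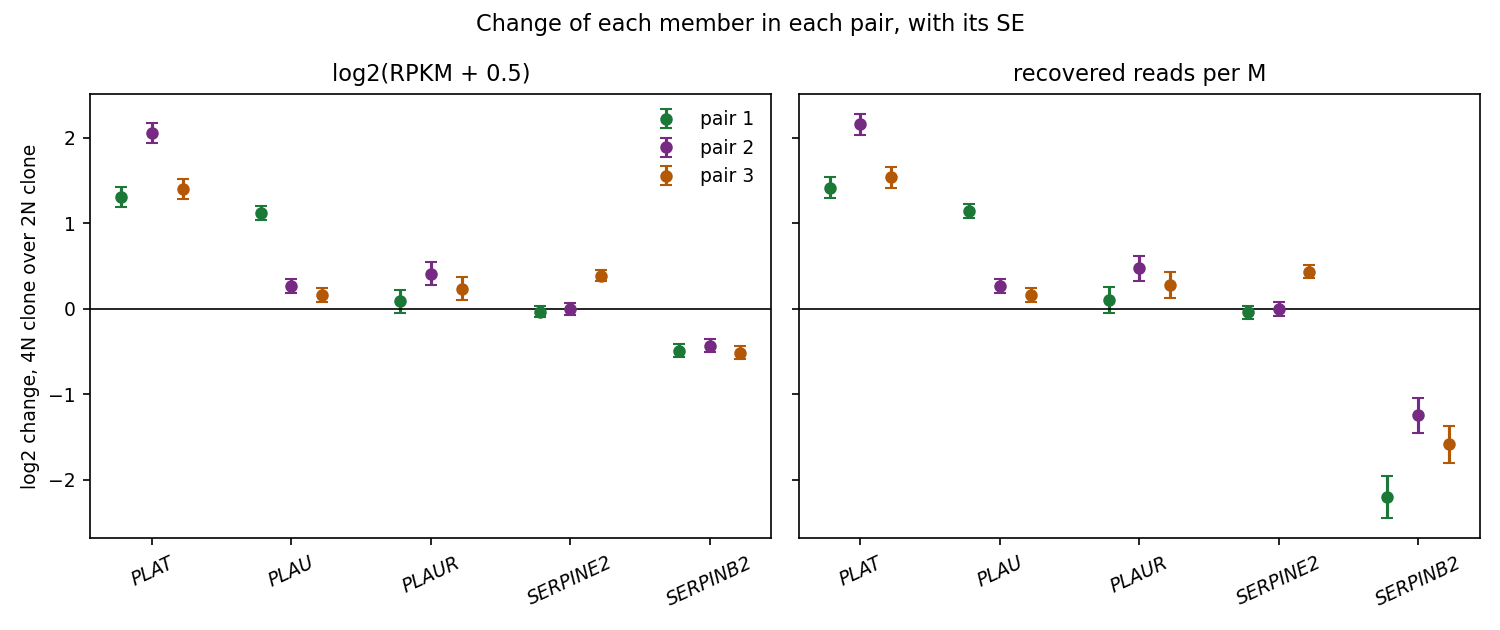
Log2 change, 4N clone over 2N clone, of each member in each pair (points), with its SE (bars), on log2(RPKM + 0.5) at left and on recovered reads per M at right. PLAT, chosen for this contrast, lies at 1.30 to 2.05 at left. Only SERPINB2 lies below 0 by more than its SE in every pair, and the right panel shows its change without the pseudocount (-1.25 to -2.20).

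Per kb of exon the members were far apart in level, here as recovered reads per M of library and per kb of the gene's GENCODE exons, averaged by clone. PLAT was at 43.6 to 118 in 4N clones and 14.9 to 27.2 in 2N clones, and PLAU at 55.8 to 92.9 in 4N clones and 42.1 to 50.5 in 2N clones. SERPINE2 was at 27.9 to 35.8 in 4N clones and 24.01 to 35.96 in 2N clones, and PLAUR at 14.5 to 20.9 in 4N clones and 13.4 to 14.9 in 2N clones. SERPINB2 was lowest, at 0.727 to 2.05 in 4N clones and 3.36 to 4.94 in 2N clones. On this scale PLAT lay below PLAU in every 2N clone, and above it in 4N-2 only (118 against 60.4). Whether reads in introns were counted is not given, so the order of genes on this scale may depend on their introns. SERPINB2 reads include any in the stretch that it shares with SERPINB10.

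With the clone as the unit, 3 tetraploid against 3 diploid clones and pair as a block, 0.0% of the 9704 genes passed in limma (391 had an unadjusted p below 0.05), and 0.0% passed on recovered reads (1066 unadjusted). PLAU clone means were higher in every 4N clone than in any 2N clone, with a log2 change of 0.51 (SE 0.23, unadjusted p = 0.0716, adjusted p = 0.996). SERPINB2 clone means were lower in every 4N clone than in any 2N clone (log2 -1.62 on recovered reads, SE 0.24, unadjusted p = 0.001, adjusted p = 0.499). How many of all genes had clone means apart in this way was not counted, so nothing is read from either order. PLAUR (log2 0.24) and SERPINE2 (log2 0.12) overlapped between ploidies, each at an adjusted p of 0.996. PLAT averaged 3.71 on the log2 scale over 4N clones and 2.13 over 2N clones, without a test.

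The rest of the plasminogen system was followed through a list of 34 genes, chosen with earlier results of these data known. Of these, 15 were above the RPKM filter. Pair 1 had 5 genes that rose and 2 that fell, with a median log2 change of 0.31 (all tested genes, -0.01), against a background of 10.6% rising and 10.3% falling. Pair 2 had 7 that rose and 3 that fell, with a median of 0.30 (all tested genes, 0.04), against 21.5% and 16.0%. In pair 3 none passed (median 0.08, all tested genes -0.02), where the background was 1.99% rising and 1.41% falling. On recovered reads 29 could be tested, and more passed: 10 upwards and 3 downwards in pair 1 (background 10.0% and 9.04%), 11 upwards and 10 downwards in pair 2 (20.4% and 21.4%), and 3 upwards with none downwards in pair 3 (3.37% and 2.96%). The median in pair 2 then lay at -0.21, so the direction of the list in that pair depended on whether its low genes were counted.

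A few listed genes that were not called are given as well, chosen after their values were seen. S100A10 and ANXA2 form the annexin A2 complex, which gathers plasminogen and tPA at the cell surface. S100A10 rose in pair 2 (log2 0.83, adjusted p = 0.000732) and was at 0.45 in pair 1 and 0.32 in pair 3 (adjusted p = 0.0587 and 0.264). ANXA2 rose in pair 2 (0.59, adjusted p = 0.000577) and was at -0.00 in pair 1 and -0.23 in pair 3 (adjusted p = 0.993 and 0.261). ENO1, the glycolytic enolase that also binds plasminogen, fell in pair 1 (-0.53, adjusted p = 0.00911) and was at -0.31 in pair 2 and -0.25 in pair 3 (adjusted p = 0.072 and 0.288). PLGRKT, the gene of a membrane receptor for plasminogen, passed in no pair on recovered reads (0.18, 0.09 and -0.19). F3, the gene of tissue factor, rose in pairs 1 and 2 (0.92 and 0.76, adjusted p = 0.00057 and 0.000891). It was at -0.08 in pair 3 (adjusted p = 0.75).

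THBD, the gene of thrombomodulin, which turns thrombin towards protein C and the fibrinolysis inhibitor TAFI, was called in opposite directions. In pair 1 it averaged 7.11 RPKM in 4N-1 and 17.04 RPKM in 2N-1, a log2 change of -1.20 (SE 0.10, adjusted p = 1.73e-06). In pair 2 it averaged 10.9 RPKM in 4N-2 and 2.85 RPKM in 2N-2, a log2 change of 1.76 (adjusted p = 4.52e-09). Of all genes, 0.804% were called lower in pair 1 and 2.46% called higher in pair 2. On recovered reads only, 4 low-level genes were called lower in pair 2: SERPINA5, the protein C inhibitor (-4.68), PLG, plasminogen itself (-1.63), KLKB1, plasma prekallikrein (-1.54), and PDGFD, a growth factor that urokinase can activate (-1.30). KLKB1 and PDGFD rose in pair 1 (0.45 and 0.97), and SERPINA5 was called lower there (-1.96). PLG amounted to 28 reads in 4N-2 and 106 in 2N-2 over 3 libraries.

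**Figure D3:**
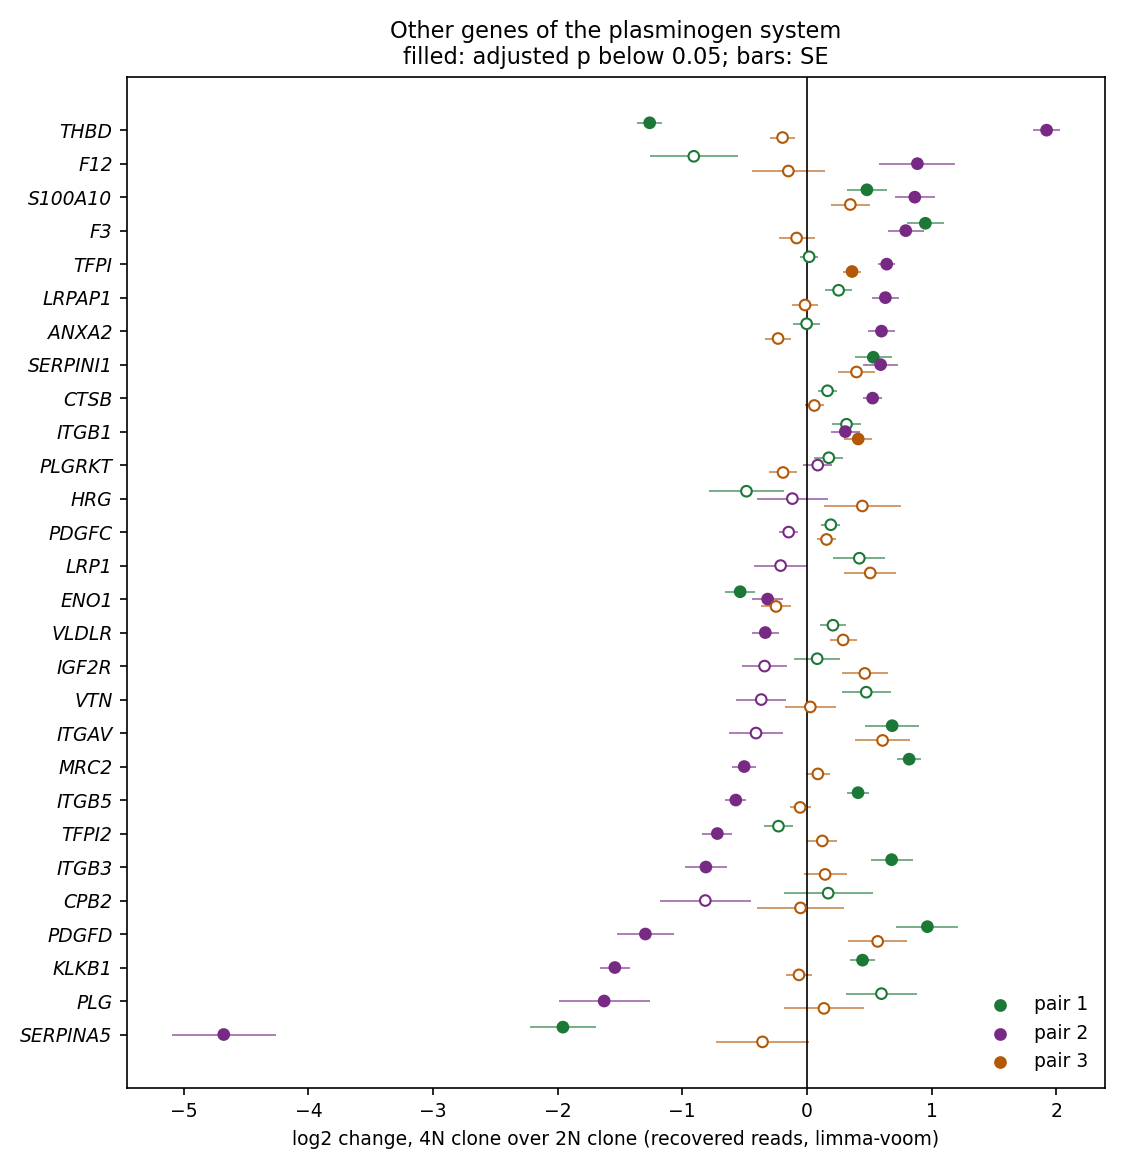
Log2 change on recovered reads, 4N clone over 2N clone, of 28 listed genes of the plasminogen system with enough reads, by pair, ordered by pair 2. Filled points have an adjusted p below 0.05 and bars are SEs. THBD lies below 0 in pair 1 (-1.26) and highest in pair 2 (1.92), and pair 3 has few filled points.

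For each member the 3 nearest tested genes on either side were examined, and none of them was called in any pair. Beside PLAT, IKBKB, an activating kinase of NF-kappaB signalling, rose in all 3 pairs by 0.29, 0.41 and 0.23 (adjusted p = 0.00321, 6.55e-05 and 0.0483), where 0.649% of genes rose in all 3. The gene on the other side, AP3M2, 3.6 kb away, was at 0.06, 0.17 and 0.29. Beside PLAU, AC022400.6, NDST2 and VCL, the gene of vinculin, rose in pair 1 (0.45, 0.51 and 0.70, adjusted p = 0.00431, 0.00321 and 0.00377). In that pair 10.6% of all genes tested rose. Of the genes beside SERPINB2, the serpin SERPINB8 was at -0.16, 0.04 and 0.14 and passed in no pair. DSEL, 3602.7 kb away, fell in pair 1 (-0.69) and rose in pair 2 (0.995).

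**Figure D4:**
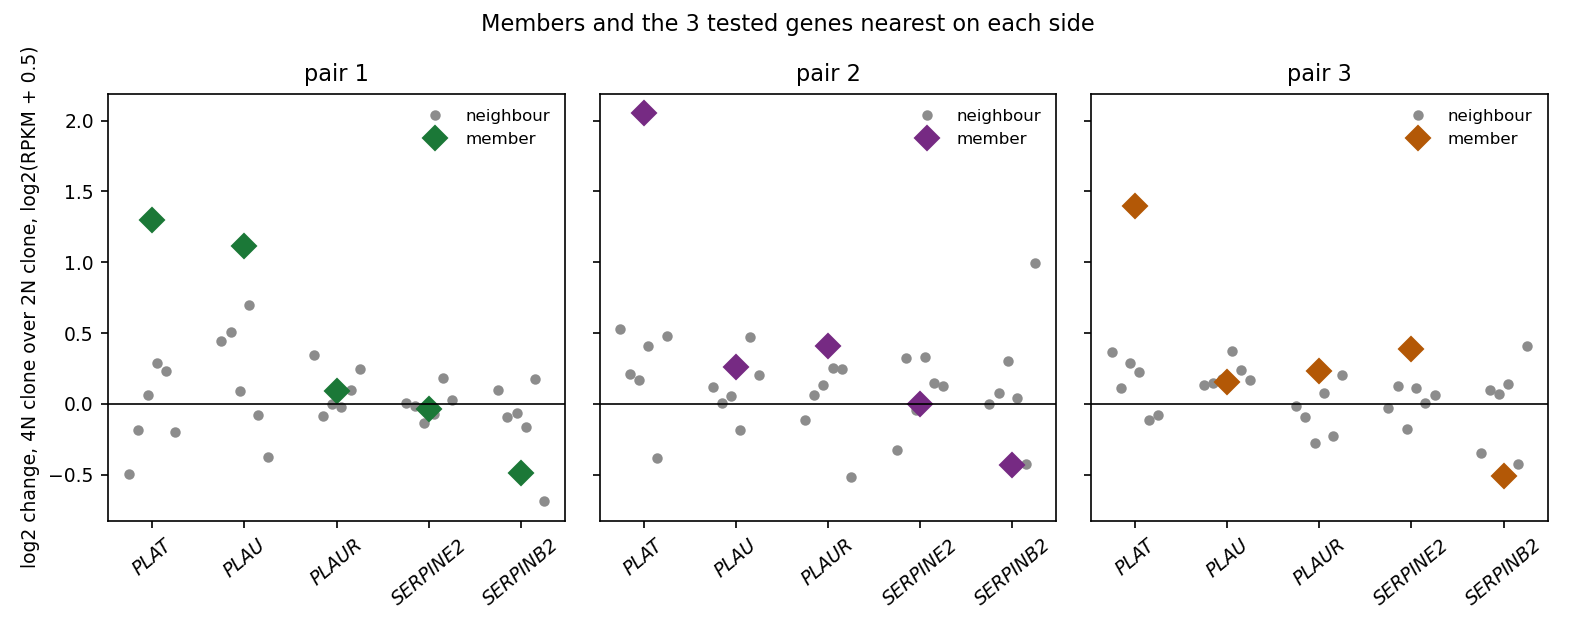
Log2 change on log2(RPKM + 0.5), 4N clone over 2N clone, of each member (diamonds) and its 6 nearest tested genes (grey points), 1 panel a pair. PLAT lies at 1.30, 2.05 and 1.40, and its neighbours at no more than 0.29, 0.53 and 0.37 in pairs 1, 2 and 3. PLAT was chosen for its change in these pairs, so nothing is read from its place above its neighbours.

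The genes whose pattern over the 18 libraries was most like that of a member were found by Pearson's r on log2(RPKM + 0.5), as a description. Libraries of a clone share that clone, so the points are not independent. The genes were picked by r, so a clone order shared with their member follows from the choice. For PLAT, r also draws on the 4N against 2N difference it was chosen for, and nothing is read from it. PLAT was most like PRNP, the prion protein gene (r = 0.976), CDKN1A, the gene of the CDK inhibitor p21 (0.971), FBXO44 (0.971) and FAM131B (0.968). CDKN1A averaged 30.8, 48.7 and 22.95 RPKM in 4N-1, 4N-2 and 4N-3, and 12.9, 14.1 and 11.3 RPKM in 2N-1, 2N-2 and 2N-3. PLAU was most like COPG1 (0.945), CSRP1 (0.942), MAGED1 (0.936) and MXRA7 (0.932), all highest in 4N-1. PLAUR was most like RIC8A (0.95), RASSF1 (0.947), C12orf75 (0.943) and TMEM158 (0.942). SERPINE2 had looser partners, with OSR1 at 0.895, PIGO at 0.845, NFE2L1 at 0.779 and CMTR1 at 0.762. SERPINB2 was most like RNF145 (0.894), CRABP2, a retinoic acid binding protein gene (0.86), PKN3 (0.857) and SHMT1 (0.842). Between members, r was 0.535 for the 2 activators, 0.182 for urokinase and its receptor, and -0.767 for PLAU and SERPINB2.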

How the data were processed

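Values were the authors' deposited RPKM (reads scaled to gene length and library size), 1 column per library and 57773 genes. Reads were processed with CASAVA 1.8.2, TopHat2 and edgeR on hg19, per the submitters' processing notes; the gene annotation and whether counting used strand are not given in the sources used here. Libraries came from a stranded poly(A) kit, per the labels. For 21660 of 24797 well-covered genes the length behind RPKM was within 0.5% of the whole GENCODE 29 gene span, introns included, so RPKM understates genes with long introns. Members and lists were chosen with earlier results of these data known.

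Means of 6 clones were fitted with limma 3.58.1 (R 4.3.3) on log2(RPKM + 0.5), with a trend in the spread, two-sided, for genes of 1 RPKM or more in 3 libraries. Named genes were the members, listed genes called in a pair, the 4 genes most correlated with each member, and 6 neighbours; 1 listed gene enters the counts and is not reported here. S100A10, ANXA2, ENO1, PLGRKT, F3 and SERPINH1 were added after their values were seen. SERPINB2 was below the filter and was tested without it, a choice made after its values were seen. Whole reads were recovered from the steps between RPKM values (99.9842% of values above 0 within 0.01 of a whole read) and fitted with limma-voom for genes of 10 or more reads in 3 libraries. Genomic positions are those of GENCODE 29 and RefSeq on GRCh38. Scripts were tested on simulated data. Library letters were not treated as pairs, since libraries of 1 letter in the 2 clones of a pair correlated by -0.12 to 0.22. Pseudocounts, filters, scaling, blocks and left-out libraries were varied.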

Additional observations from a re-analysis of the deposited data

Results flagged for a closer look

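The change of PLAU, 4N over 2N, differed between pairs in limma: it was smaller in pair 2 than in pair 1 by a log2 difference of -0.86 (adjusted p = 5.90e-05) and smaller in pair 3 than in pair 1 by -0.96 (adjusted p = 0.000215). It kept its sign and passed under every alternative tried, with -0.93 to -0.80 for pair 2 minus pair 1 and -1.01 to -0.88 for pair 3 minus pair 1.

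The change of SERPINE2 also differed: it was larger in pair 3 than in pair 1 by 0.42 (adjusted p = 0.0119), and the change in pair 2 lay below that in pair 3 by a log2 difference of -0.39 (adjusted p = 0.00672).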

How the results depend on the processing

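The 5 members gave 65 results (pairs, differences between pairs, clones of 1 ploidy, across clones), with 1661 values under alternatives. Of these, 1577 kept their direction and their side of the threshold or, for PLAT values without a test, moved by less than the spread between libraries; 34 no longer passed, 25 newly passed and 25 changed sign. PLAT in pair 3 minus pair 1 (0.09, no test) crossed 0 without C of 4N-3 (-0.003) and without both libraries that stood apart (-0.0004). Every tested value that changed sign had an adjusted p of 0.25 or more. PLAT kept its direction in all 3 pairs under every alternative (1.20 to 1.42 in pair 1, 1.92 to 2.16 in pair 2, 1.28 to 1.54 in pair 3). PLAU in pair 1 and SERPINB2 in pairs 1 and 2 stayed past the threshold under every alternative. Settings for SERPINB2 without the filter were chosen after seeing the data. The cause of the shifts below was not tested.

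Without C of 4N-3 and A of 2N-3 together, PLAU was at 0.24 in pair 3, 0.24 in 2N-2 minus 2N-1 and -0.0700 in 2N-3 minus 2N-2. PLAUR was then at 0.54 in pair 3, 0.32 in pair 2 minus pair 1, 0.45 in pair 3 minus pair 1, -0.13 in pair 2 minus pair 3, 0.41 in 4N-3 minus 4N-1 and -0.0391 in 2N-3 minus 2N-1. PLAT was at 0.52 in 2N-2 minus 2N-1, SERPINE2 at 0.29 in 2N-2 minus 2N-1 and -0.25 in 2N-3 minus 2N-1, and SERPINB2 at 0.24 in 4N-3 minus 4N-1. On recovered reads PLAT was at 0.58 and SERPINE2 at 0.32 in 2N-2 minus 2N-1, SERPINE2 at 0.22 in 4N-3 minus 4N-1, and SERPINB2 at 0.95 in pair 2 minus pair 1, 0.62 in pair 3 minus pair 1 and 1.15 in 4N-3 minus 4N-1. With a pseudocount of 0.1, PLAT was at 0.56 in 2N-2 minus 2N-1 and SERPINB2 at 0.16 in pair 3 minus pair 1, and with a pseudocount of 1 PLAUR was at 0.0018 in 2N-3 minus 2N-2. Without a filter PLAUR was at 0.41 in pair 2 (adjusted p = 0.0504), and SERPINE2 at 0.20 in 4N-3 minus 4N-1 and 0.29 in 2N-2 minus 2N-1. With 5 RPKM as the minimum SERPINE2 was at 0.20 in 4N-3 minus 4N-1. With each library centred on its median, PLAU was at -0.0311 in 2N-3 minus 2N-2, and SERPINE2 at -0.03 in pair 2 minus pair 1 and 0.15 in 4N-3 minus 4N-1. On the libraries of pair 3 alone SERPINE2 was at 0.39 (adjusted p = 0.789) and SERPINB2 at -0.51 (adjusted p = 0.232).

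With the letter as a replicate block, SERPINE2 in 4N-3 minus 4N-1 no longer passed (0.20, adjusted p = 0.058). No other member result lost or gained the threshold. Letters paired no libraries.

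Leaving out 1 library at a time moved 17 tested member results past a threshold or through 0. PLAT in 2N-2 minus 2N-1 ranged over 0.419 to 0.654. PLAU ranged over 0.189 to 0.315 in pair 2, 0.189 to 0.314 in 2N-2 minus 2N-1 and -0.0718 to 0.0538 in 2N-3 minus 2N-2. PLAUR ranged over 0.309 to 0.488 in pair 2, 0.344 to 0.523 in 4N-2 minus 4N-1, 0.196 to 0.408 in 4N-3 minus 4N-1, -0.0391 to 0.226 in 2N-3 minus 2N-1 and -0.163 to 0.102 in 2N-3 minus 2N-2. SERPINE2 ranged over -0.0426 to 0.0368 in pair 2, -0.0070 to 0.0725 in pair 2 minus pair 1, 0.135 to 0.256 in 4N-3 minus 4N-1, 0.0674 to 0.189 in 4N-2 minus 4N-3 and 0.270 to 0.321 in 2N-2 minus 2N-1. SERPINB2 ranged over -0.0828 to 0.0411 in pair 3 minus pair 1, 0.208 to 0.299 in 4N-2 minus 4N-1 and -0.0528 to 0.0712 in 2N-3 minus 2N-2.

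Genes called were 63 higher and 78 lower in pair 1, 239 and 231 in pair 2, and 14 and 18 in pair 3. A pseudocount of 0.1 called 182, 356 and 38 genes lower. A pseudocount of 1 called 39 higher and 39 lower in pair 1, 152 lower in pair 2, and 9 higher and 11 lower in pair 3. A minimum of 5 RPKM called 33 higher and 49 lower, 107 higher and 129 lower, and 7 higher and 6 lower. On recovered reads, where more low-level genes were tested, 538 genes were called higher and 628 lower in pair 1, 1606 and 1902 in pair 2, and 249 and 340 in pair 3. On pair 3 alone 1 gene was called in each direction, and with 1 library left out 12 to 27 were called higher and 14 to 29 lower. Of the list of plasminogen system genes, 10 rose in pair 1 on recovered reads, on pair 1 alone and without the 2 libraries, 3 did with the 5 RPKM minimum, and 4 to 10 with 1 library left out. In pair 2, 11 rose on recovered reads, 10 fell without a filter and on recovered reads, 6 fell on pair 2 alone and without the 2 libraries, 1 fell with the 5 RPKM minimum, and 3 to 6 fell with 1 library left out. In pair 3, 3 rose on recovered reads and without the 2 libraries, 1 rose without a filter, and 0 to 1 rose with 1 library left out.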

Other observations

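Among 33 other serpin genes, a list chosen with earlier results of these data known, 15 could be tested on recovered reads, and several low-level members differed between the clones of a pair by more than 2-fold. In pair 1, 6 rose and 3 fell, in pair 2 the counts were 5 and 6, and in pair 3 they were 2 and 2, with median log2 changes of 0.51, 0.06 and -0.15 beside 0.02, -0.02 and 0.02 over all genes tested. Of all genes tested, 10.0% rose and 9.04% fell in pair 1, 20.4% and 21.4% in pair 2, and 3.37% and 2.96% in pair 3. The genes that fell include SERPINB10 in every pair, whose reads in the stretch shared with SERPINB2 cannot be assigned to either gene.

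SERPINB1, an intracellular inhibitor of neutrophil proteases, passed in every pair on recovered reads but not in 1 direction. It averaged 0.0511 ± 0.0101 RPKM in 4N-1 and 0.0118 ± 0.000631 RPKM in 2N-1, 1.64 ± 0.15 RPKM in 4N-2 and 0.232 ± 0.031 RPKM in 2N-2, and 0.0383 ± 0.0069 RPKM in 4N-3 and 0.241 ± 0.024 RPKM in 2N-3 (SD, n = 3 each). Its log2 changes on recovered reads were 1.97, 2.81 and -2.62 (limma-voom, adjusted p = 0.000269, 1.74e-11 and 3.37e-07). The change in pair 1 rests on 66 reads in 4N-1 and 14 reads in 2N-1, and did not pass on the RPKM scale (0.11, limma adjusted p = 0.31). SERPINB7 rose by 3.43 on the log2 scale in pair 2 (2569 reads in 4N-2 and 287 reads in 2N-2, adjusted p = 3.92e-10) and by 1.16 in pair 3 (528 reads in 4N-3 and 226 reads in 2N-3, adjusted p = 0.00407), while in pair 1 its value was -0.41 (adjusted p = 0.254). SERPINA3, the gene of alpha-1-antichymotrypsin, fell in pairs 1 and 2 (log2 -1.55 and -4.82, adjusted p = 0.00177 and 8.51e-07), with 94 reads in 4N-1 and 252 reads in 2N-1, and 11 reads in 4N-2 and 425 reads in 2N-2. SERPING1, the gene of the C1 inhibitor, had 66 reads in 4N-2 and 0 reads in 2N-2. SERPINA1 rose in pair 1 and fell in pair 2 (log2 1.48 and -1.58, adjusted p = 0.0243 and 0.0177), and SERPINI2 rose in pair 1 on 38 reads in 4N-1 and 5 reads in 2N-1 (adjusted p = 0.00371). SERPINH1, the gene of the collagen chaperone HSP47, was not called but rose in pair 1 (log2 0.57, limma adjusted p = 0.00148) and fell in pair 2 (log2 -0.84, adjusted p = 1.65e-05), at 30.9 ± 0.4 RPKM in 4N-1 and 20.7 ± 1.2 RPKM in 2N-1, and 12.4 ± 0.3 RPKM in 4N-2 and 22.7 ± 1.7 RPKM in 2N-2 (SD, n = 3 each). Differences between pairs were not tested for these genes.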
